A study of Mus musculus with 4 samples.

Results

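Kruppel-like factors (KLFs) are transcription factors that bind GC-rich and CACCC sequences through C2H2 zinc fingers at the C-terminal end of the protein. Occupancy of 10 of their genes by BRG1/BRM was described in mouse neurons at rest and after depolarization. BRG1 and BRM are the ATPases that drive the BAF complex, the mammalian SWI/SNF remodeller, which moves nucleosomes. The 10 genes were a named list (Klf2, Klf4, Klf5, Klf6, Klf7, Klf9, Klf10, Klf12, Klf13 and Klf16) out of 21887 protein-coding genes. Every enriched region, called an island, in or within 50 kb of a member was taken from both island lists. This gave 24 of 20966 islands after KCl and 0 of 711 islands in basal neurons.

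The cells were wild-type cortical neurons cultured from E16.5 embryos and harvested at 6 days in vitro, either at the basal KCl level or after 1 h in 50 mM KCl. Before KCl the cultures received tetrodotoxin (TTX, 1 µM), which blocks sodium channels, and APV (100 µM), which blocks NMDA receptors. Whether these blockers were also given to the basal cultures is not stated. Each condition had 1 IP library and 1 input library, so no difference between conditions has a replicate check and none was tested. Protein and RNA of the KLFs were not measured, and the antibody does not tell BRG1 from BRM.

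Within the family, KLF2, KLF4, KLF5, KLF6 and KLF7 are known mainly as activators. KLF12 belongs to the branch that represses through the corepressor CtBP, and KLF9, KLF10, KLF13 and KLF16 belong to the branch that recruits the corepressor Sin3A. In neurons KLF4 and KLF9 are known to restrain axon growth, and KLF6 and KLF7 to promote it. Klf4 and Klf10 were set apart as the pair known to be induced by activity.

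The RefSeq promoter table of GRCm38.p6 held 7 of the 10 members. Klf5, Klf10 and Klf16 had no entry. In 5 of the 7 the listed start was also the outermost end of the gene. Of these starts, 4 were covered by a KCl island and that of Klf2 was not. The plan was to show Klf4, Klf10 and the paralogues of largest and smallest gene-end fold, Klf5 and Klf7. Klf5 and Klf10 had no entry, and the listed Klf7 start lies inside the gene. The promoters of Klf4 and Klf10 were therefore not compared. The 250 bases before each of the 5 starts are shown instead. They are chr4:55532476-55532725 (minus strand), chr13:5861239-5861488 (plus), chr19:23140976-23141225 (plus), chr7:63938916-63939165 (minus) and chr8:72318812-72319061 (plus). Capitals mark matches, on either strand, to TGACG (the core of the cAMP response element), TGANTCA (the AP-1 site) and CCAAT (the CCAAT box).

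Klf4: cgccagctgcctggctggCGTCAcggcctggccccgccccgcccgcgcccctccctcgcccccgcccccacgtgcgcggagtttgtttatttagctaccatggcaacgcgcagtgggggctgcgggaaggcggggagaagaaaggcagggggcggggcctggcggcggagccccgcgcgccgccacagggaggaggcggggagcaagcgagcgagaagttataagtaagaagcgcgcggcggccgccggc
Klf6: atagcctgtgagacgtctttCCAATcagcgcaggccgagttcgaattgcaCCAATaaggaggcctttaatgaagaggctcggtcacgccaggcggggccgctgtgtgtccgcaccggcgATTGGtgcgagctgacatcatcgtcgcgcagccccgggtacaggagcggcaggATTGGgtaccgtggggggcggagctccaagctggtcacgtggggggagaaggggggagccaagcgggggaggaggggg
Klf9: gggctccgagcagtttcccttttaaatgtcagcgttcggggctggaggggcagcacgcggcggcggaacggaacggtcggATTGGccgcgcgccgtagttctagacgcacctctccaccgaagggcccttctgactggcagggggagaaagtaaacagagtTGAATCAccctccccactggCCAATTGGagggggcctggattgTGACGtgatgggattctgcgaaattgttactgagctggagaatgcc
Klf13: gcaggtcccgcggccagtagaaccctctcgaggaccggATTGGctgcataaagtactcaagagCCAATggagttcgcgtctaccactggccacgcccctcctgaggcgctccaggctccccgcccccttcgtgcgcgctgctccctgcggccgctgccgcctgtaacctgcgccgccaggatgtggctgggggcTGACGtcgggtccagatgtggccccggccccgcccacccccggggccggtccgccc
Klf2: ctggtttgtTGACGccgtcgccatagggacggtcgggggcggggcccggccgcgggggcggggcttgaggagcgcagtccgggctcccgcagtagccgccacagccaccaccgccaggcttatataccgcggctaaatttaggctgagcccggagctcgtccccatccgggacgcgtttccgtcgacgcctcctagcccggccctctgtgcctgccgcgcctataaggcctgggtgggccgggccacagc

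The Klf4 sequence held 1 TGACG match, which began 232 bases before the start, and 4 matches to GGGCGG (the GC box). Klf6 had 4 CCAAT matches and 1 GC box. Klf9 had 3 CCAAT matches, of which a pair on opposite strands overlapped, 1 AP-1 match beginning at base 89 before the start and 1 TGACG match at base 46. Klf13 had 2 CCAAT matches, 1 TGACG match and 3 GC boxes. The Klf2 sequence, with no island, held 1 TGACG match, 2 GC boxes and no CCAAT match. Klf4, whose start lay under an island, had no CCAAT match either. Of 21263 promoters of protein-coding genes of the same length, 20.2% held TGACG, 6.13% held TGANTCA, 35.4% held CCAAT and 42.6% held GGGCGG. The whole element TGACGTCA (1.92% of promoters, and containing TGACG), the TATA box TATAAA (11.6%) and the CArG box (1.39%) had no match in the 5 sequences shown. The motif CACCC, found in 54.2% of promoters, had 1 match each in Klf2, Klf9 and Klf13. These sequences were 59.6% (Klf9) to 74.0% (Klf4) GC, against a median of 55.6% over all promoters. The listed starts of Klf7 and Klf12 lie inside the gene, and their sequences were searched but are not shown. Klf7 was 59.2% GC, and Klf12 was 48.0%, below that median. Klf12 held 1 TATAAA match and Klf7 held none. Neither had a CCAAT match.

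After KCl, 9 of the 10 Klf genes had an island, and in each of the 9 an island lay within 2 kb of an end of the gene. Klf2 had none. Of all protein-coding genes, 59.4% had a KCl island in or within 50 kb, and 25.2% had one within 2 kb of a gene end. A gene-end island of at least 2-fold over control was present at 6 of 10 members, against 8.74% of all genes. Among genes of at most 20 kb, 5 of 6 members had a gene-end island, compared with 17.5% of all genes of that length. The members were listed with earlier results of these data known, so these counts are a description. They rest on the length of the KCl list. Among its first 711 islands by p or by fold, the number in the basal list, 0 lay within 50 kb of a member. The share of all genes for these shortened lists was not computed. The basal list of that length reached 2.94% of all genes within 50 kb, so a count of 0 is no result about Klf genes.

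In basal neurons 0 of 10 members had an island at a gene end or within 50 kb. The share over all genes was 0.411% at gene ends and 2.94% within 50 kb, so a count of 0 is near the background and says nothing particular about Klf genes. The nearest basal island lay 266 kb away, at Klf16, and the farthest such distance was that of Klf5 (8373 kb). Absence of a call does not show absence of BRG1/BRM, because the basal list was short and total depths are unknown. At 59 islands that overlapped by at least 80% each way in both lists, the basal library had a median of 28.1 IP and 15.5 control reads per kb, and the KCl library 50.0 and 11.4. The part of this difference in the missing basal calls was not tested.

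As a check of the labelled cell type, 7 of 10 cortical neuron marker genes had a KCl gene-end island. The counts were 3 of 6 for astrocyte, 2 of 6 for oligodendrocyte lineage and 0 of 6 for microglia genes. Of all protein-coding genes, 25.2% had one. The astrocyte and oligodendrocyte lists were also above this share, so the check does not set neurons apart from them. The corresponding basal counts were 0 in all 4 lists (0.411% of all genes), and occupancy of a gene is not its expression.

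Among the activator branch, Klf4 had the largest gene-end fold of the 10 genes. Its island (chromosome 4, 55532001 to 55534000) held 73 IP reads and 12 control reads, a fold of 3.82 [2.06 to 7.73], brackets being 95% exact intervals. It was 2000 bp wide and reached from 1.53 kb before the Klf4 start to 0.474 kb after it, so the promoter printed above lies inside it. A long noncoding RNA gene, Gm12506, has an end 235 bp from the Klf4 start, under the same island, and reads cannot be divided between them. No other island lay within 50 kb of Klf4. By fold it ranked at percentile 97.3 of the 4856 KCl islands at gene ends, whose median was 1.82.

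Klf5, known for its role in proliferating epithelial and smooth muscle cells, followed with 62 IP reads and 12 control reads (3.25-fold [1.73 to 6.62]; chromosome 14, 99298401 to 99300200). This island of 1800 bp covered the lower-coordinate end of the gene. Klf4 and Klf5 thus had similar narrow islands at 1 gene end each, and their intervals overlapped widely.

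Klf6 and Klf7 carried much broader islands. At Klf6 the island spanned 5800 bp (chromosome 13, 5859001 to 5864800), from 2.49 kb before the start to 3.31 kb after it, and 201 IP against 55 control reads were counted in it (2.30-fold [1.70 to 3.15]). At Klf7 it spanned 7800 bp (chromosome 1, 64115801 to 64123600) and held 273 IP and 94 control reads (1.82-fold [1.44 to 2.33]). Their widths were at percentiles 95.8 and 98.8 of gene-end islands, and that of Klf4 was at percentile 31.7.

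Klf7 also had 4 islands beyond its 3′ end, at 2.45, 14.4, 33.4 and 36.2 kb. The largest fold among them was 2.73 [1.67 to 4.69], at 33.4 kb, with 87 IP and 20 control reads. The island at 36.2 kb was 1.55-fold with an interval that included 1 [0.830 to 3.04]. No other island of the 24 had such an interval.

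Klf2, which is best known from endothelial cells and lymphocytes, was the exception. No island was called in the gene or within 50 kb. The nearest, 77.5 kb away, had Ap1m1 as its nearest gene and was 1.51-fold with an interval that included 1 [0.878 to 2.68]. The Klf2 gene is also the shortest of the 10, at 2.59 kb.

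**Figure D1:**
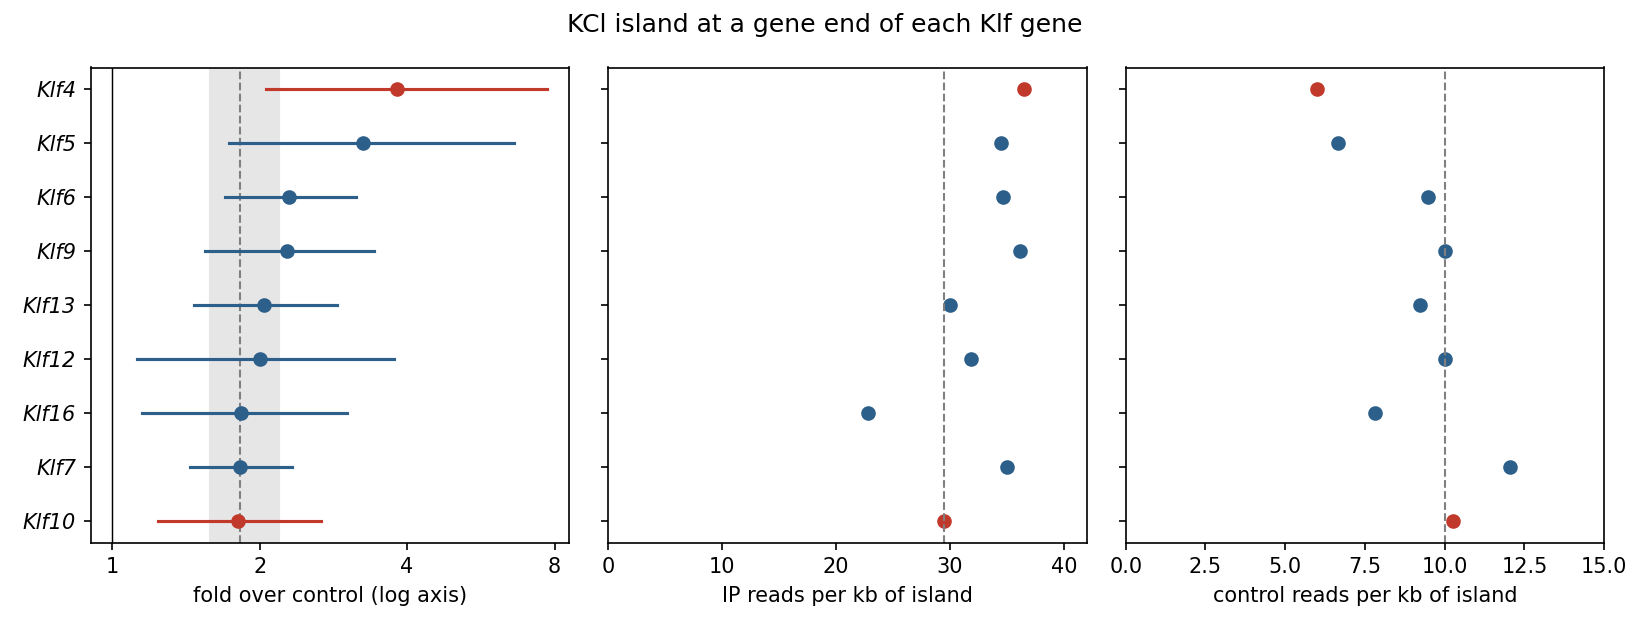
The gene-end KCl island of largest fold at each of 9 Klf genes, with fold over control on a log axis (bars are 95% exact intervals), IP reads per kb and control reads per kb; Klf4 and Klf10 are red, dashed lines are medians of all 4856 gene-end islands and the grey band is their interquartile fold range (1.58 to 2.19). Klf4 is highest and Klf10 lowest by fold, whereas their IP densities (36.5 and 29.5 reads per kb) lie close together and the control densities (6.00 and 10.3) lie farther apart.

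Klf12 of the CtBP branch, the longest gene at 420 kb, had 7 KCl islands, the most of any member. At its gene ends the folds were modest. The island at the 3′ end (chromosome 14, 99866601 to 99868200) held 51 IP and 16 control reads (2.0-fold [1.12 to 3.76]), and that at the outermost 5′ end (100282001 to 100287800) held 161 and 62 (1.63-fold [1.21 to 2.22]). The start listed in the promoter table lies inside the gene, and the nearest island to it was 132 kb away.

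The other 5 Klf12 islands lay toward its 3′ side, 2 in the gene body and 3 beyond the 3′ end, and had higher folds than those at the gene ends. In the body, the island of 2400 bp at 3.02 kb from the 3′ end held 108 IP and 19 control reads (3.57-fold [2.18 to 6.16]), and the other was 3.25-fold [1.73 to 6.62]. Beyond the 3′ end, islands at 4.98, 8.78 and 44.8 kb were 3.43-fold [1.78 to 7.23], 3.38-fold [1.57 to 8.31] and 3.86-fold [1.72 to 10.2]. The last had only 7 control reads. All 5 intervals overlapped those of the gene-end islands, but the 3.57-fold island and the 5′ end island overlapped only from 2.18 to 2.22. Overlap of intervals is not a test, and ratios between these islands were not computed.

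In the Sin3A branch, Klf9, a gene induced by thyroid hormone and glucocorticoids, had 4 KCl islands of 1.83-fold to 2.27-fold, whose intervals overlapped. The island over its start (chromosome 19, 23140601 to 23144000) held 123 IP and 34 control reads (2.27-fold [1.54 to 3.43]). A further island covered the last part of the gene, 0.129 kb inside its 3′ end (45 and 13 reads, 2.17-fold [1.15 to 4.39]). Another lay 3.63 kb before the start (1.83-fold [1.29 to 2.63]). The last, 19.5 kb beyond the 3′ end (2.23-fold [1.34 to 3.87]), was nearer to Smc5, which encodes a subunit of a chromosome maintenance complex.

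Klf10, known as a TGF-beta-inducible early gene, had 1 island, over its higher-coordinate end (chromosome 15, 38298601 to 38302400). It held 112 IP and 39 control reads in 3800 bp (1.80-fold [1.24 to 2.67]), the lowest of the 9 genes when each is taken by its gene-end island of largest fold. This is at percentile 48.1 of all gene-end islands, in the middle of the distribution. A long noncoding RNA gene, Gm35248, also has an end within 2 kb of the island.

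Klf13, first described in lymphocytes as a regulator of a chemokine gene, had a broad island of 5200 bp over its start (chromosome 7, 63934801 to 63940000) in which 156 IP and 48 control reads were counted (2.04-fold [1.47 to 2.88]). A narrow island of 800 bp in the gene body, 13.1 kb from the start, held 37 IP and 7 control reads (3.32-fold [1.46 to 8.82]). At Klf16, which encodes a regulator of dopamine receptor genes, the gene-end island (chromosome 10, 80576401 to 80579600) held 73 IP and 25 control reads (1.83-fold [1.15 to 3.02]). Its IP density of 22.8 reads per kb was the lowest of the 11 member islands at gene ends, at percentile 5.24. The other Klf16 island, 4.52 kb outside the gene, had Rexo1, an exonuclease gene, as its nearest protein-coding gene (2.11-fold [1.14 to 4.15]).

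**Figure D2:**
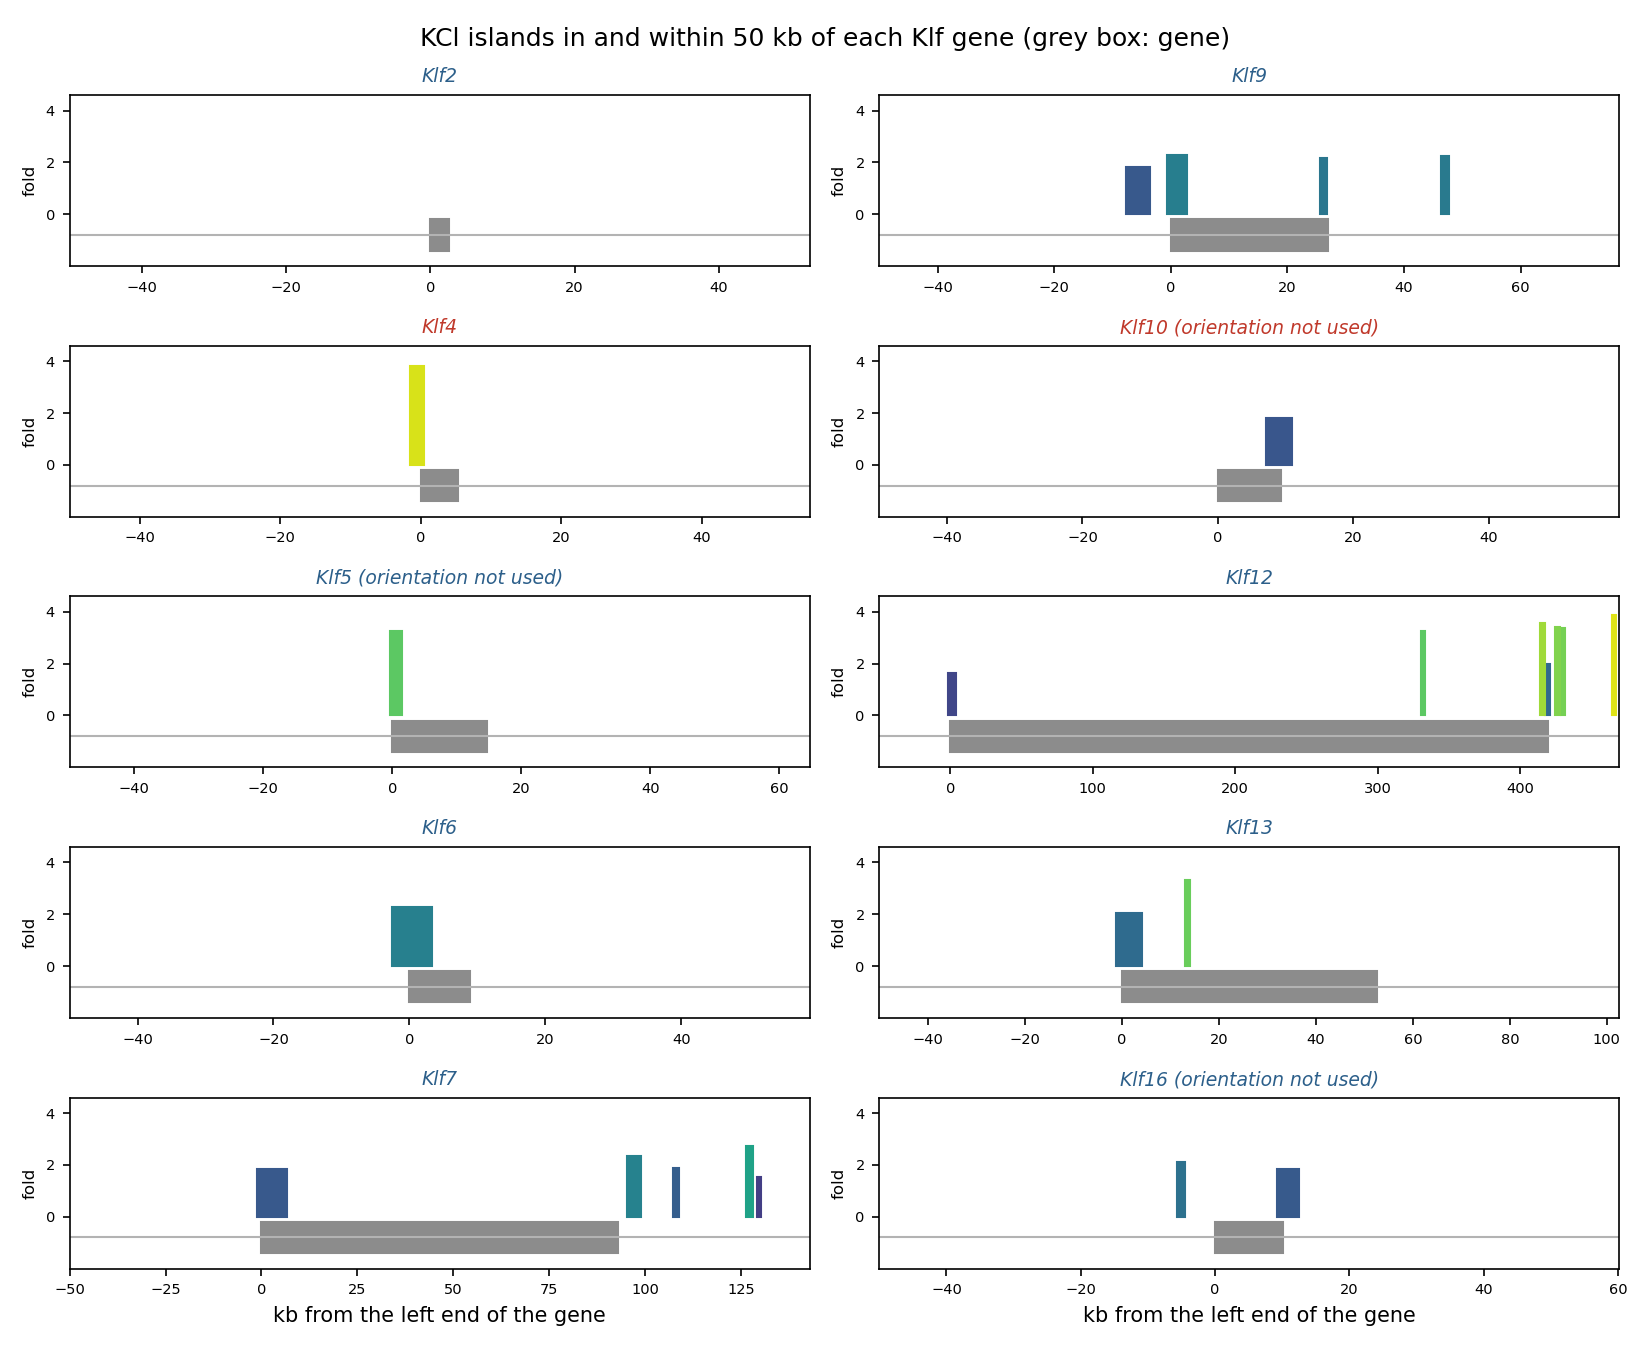
KCl islands in and within 50 kb of each Klf gene, drawn as bars whose height is the fold over control (brighter is higher). Positions are distances in kb from the gene's left end, which is the 5′ end at members with a promoter entry. Klf5, Klf10 and Klf16 had none, so their orientation was not used and their left end is the lower-coordinate end. Grey boxes are the genes, and the narrowest islands are widened to stay visible. Klf4, Klf5, Klf6 and Klf10 have 1 island each, Klf12 has 7 and Klf2 has 0.

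The activity-induced pair did not stand together. With each gene taken by its gene-end island of largest fold, Klf4 was highest and Klf10 lowest, and the other 7 genes lay between them, from 1.82 at Klf7 to 3.25 at Klf5, with a median of 2.04. The last place of Klf10 depends on that choice, since with the reads of its 2 gene-end islands added up Klf12 was at 1.71, below the 1.80 of Klf10. The Klf4 fold was 1.87 times this median and the Klf10 fold 0.884 times. The ratio of Klf4 to Klf10 was 2.12, with an exact conditional interval of 1.00 to 4.74 whose lower limit is just above 1. Of 15 pairs between either gene and the other genes, the interval excluded a ratio of 1 in 2 before any adjustment for the number of pairs, namely Klf4 over Klf10 and Klf4 over Klf7 (2.09 [1.07 to 4.42]). In 0 of 7 pairs of Klf10 with the other paralogues did it do so, and the intervals ran from 0.247 to 1.18 against Klf5 and from 0.630 to 1.57 against Klf7, so differences of that size are not resolved.

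The pair differed in control reads more than in IP reads. For the same island per gene, Klf4 had 36.5 IP reads per kb, the highest of the 9, and Klf10 had 29.5, a ratio of 1.24. Control reads were 6.00 per kb at Klf4, the lowest of the 9, and 10.3 at Klf10, a ratio of 0.585. These densities rest on 12 control reads at Klf4 and 39 at Klf10, and no interval was computed for the ratios of densities. Klf5 also had 12 control reads, in a narrower island. Measured by IP reads per kb in place of fold, Klf4 was 1.06 times the median of the other genes, and Klf10 was 0.856 times. The 3′ end island of Klf9 had 37.5 IP reads per kb, above that of Klf4. At Klf4 the control density was at percentile 3.04 of all gene-end islands, and at Klf5, which came next by fold, at percentile 6.11.

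**Figure D3:**
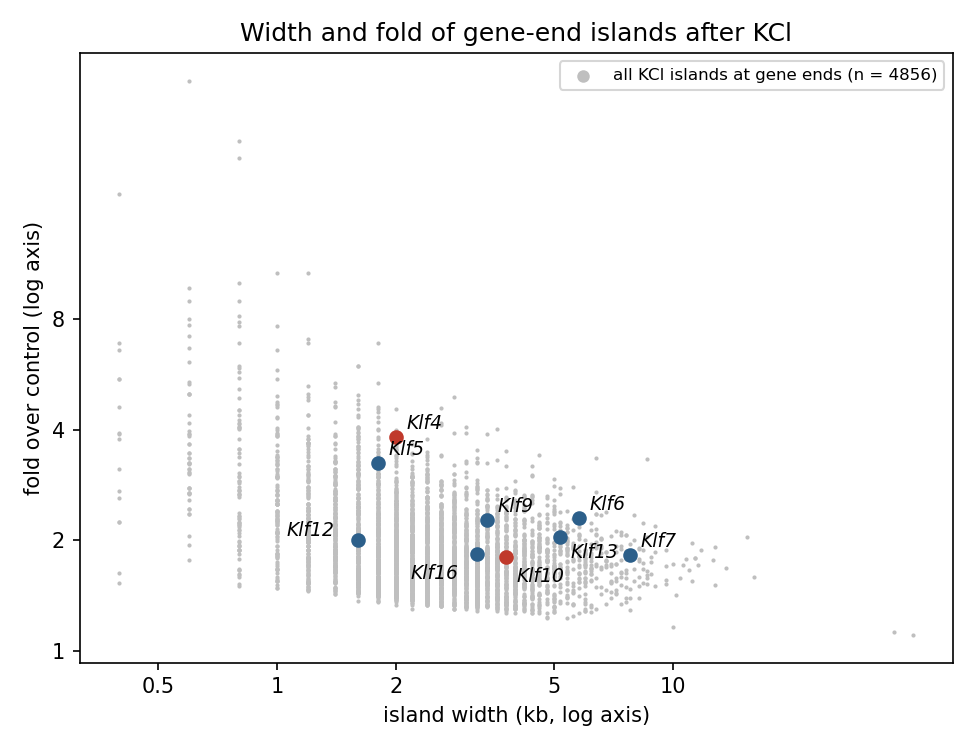
Width in kb against fold over control, both on log axes, for all 4856 KCl islands at gene ends (grey, islands with 0 control reads against a floor of 3) and the 9 Klf genes (Klf4 and Klf10 red). Klf4 and Klf5 lie among narrow islands of high fold, and Klf6, Klf7 and Klf13 among islands of 5200 bp and more.

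In number of islands the pair also differed from the long paralogues. Klf4 and Klf10 had 1 island each within 50 kb, as had Klf5 and Klf6, whereas 5 members had more than 1. The other 8 genes held 22 of the 24 islands. Longer genes had more islands over the 10 genes (Spearman's rho 0.91 across genes, which are not independent replicates), and a longer gene also has a longer window. Length and gene-end fold gave a rho of -0.40 over 9 genes.

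The 11 member islands at gene ends had a median fold of 2.04 and a median width of 3400 bp, whereas the 13 islands elsewhere had a median fold of 2.73 (range 1.55 to 3.86) and a median width of 1600 bp. Over all KCl islands the medians were 1.82 and 2400 bp at gene ends and 2.67 and 1400 bp elsewhere. That split used the ends of any protein-coding gene, whereas member islands were split by the ends of the member alone. The intervals of all 11 gene-end islands lay above 1, as did those of 76.1% of all gene-end islands. At 7 of the 9 genes the gene-end fold was above the 50th percentile. This count took each gene by its gene-end island of largest fold, whereas the percentiles are of single islands. Klf12 entered it only through its 3′ end island (percentile 64.9), since its 5′ end island was 1.63-fold, below the median of 1.82. Klf16 was just above the middle, at percentile 50.8.

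Of the 11 gene-end islands, 6 also lay within 2 kb of an end of a long noncoding RNA gene, at Klf4, Klf6, Klf7, Klf10, Klf12 and Klf16. Among all gene-end islands the share was 18.4%. Their part in the signal was not tested. No second protein-coding gene had an end there.

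By count, the related genes not in the list were near the shares of all genes. Of the other 7 Klf genes (Klf1, Klf3, Klf8, Klf11, Klf14, Klf15 and Klf17), 1 had a KCl gene-end island. This was Klf3, which encodes a CtBP-binding repressor (1.51-fold [1.00 to 2.33]), and the island also overlaps the gene Gm38457. Of the 9 genes of the related specificity protein factors (Sp1 to Sp9), 2 had a gene-end island, Sp3 (2.66-fold [1.55 to 4.81]) and Sp1 (1.72-fold [1.09 to 2.78]), both encoding broadly expressed GC-box binding factors. Together 3 of 16 relatives had one, against 25.2% of all genes, and 8 of 16 had an island within 50 kb, against 59.4%. With 16 genes, these counts are near the background and say nothing particular about the relatives. The difference from the 10 listed genes was not tested, since that list was drawn up with results known. The only basal island within 50 kb of any of these 16 genes lay 28.9 kb beyond Klf3 (40 IP and 21 control reads, 2.16-fold [1.25 to 3.86]). Of all genes, 2.94% had a basal island within 50 kb.

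When KCl islands at any distance were assigned to the nearest protein-coding gene, 57 fell to 1 of the 10 listed genes, 22 within 50 kb and 35 beyond. Klf6 received 18 of the distant islands, 82.2 to 618 kb away on both sides, with a median fold of 3.29, although it had 1 island within 50 kb. Klf4 received 6, from 119 to 556 kb away, with a median fold of 4.18. The largest folds among these were at 342 kb (64 IP and 8 control reads, 5.02-fold [2.40 to 12.1]) and at 200 kb (47 and 6 reads, 4.92-fold [2.10 to 14.1]). Klf12 received 6, Klf7 4 and Klf13 1. The Klf12 island at 158 kb had 34 IP and 0 control reads, which is 7.12-fold if 3 control reads are assumed (lower interval limit 5.48). Klf2, Klf5, Klf9, Klf10 and Klf16 received 0 beyond 50 kb, so Klf4 and Klf10 differed in this count. Such a count depends on how far away the neighbouring genes lie, which was not taken into account. No basal island had a listed member as its nearest gene. A nearest gene is a position and not a target.

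**Figure D4:**
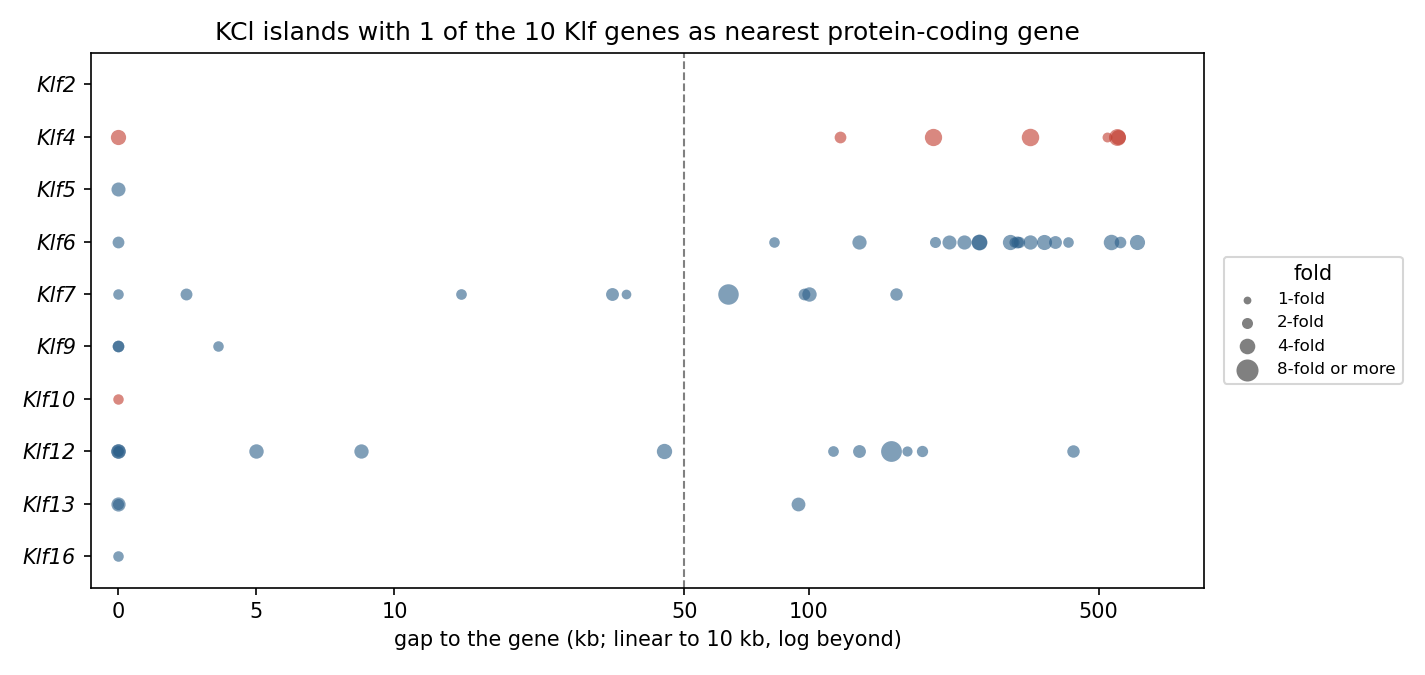
KCl islands whose nearest protein-coding gene is 1 of the 10 listed Klf genes, by their gap to it in kb (0 is in the gene; the axis is linear to 10 kb and log beyond), with point area by fold; Klf4 and Klf10 are red and the dashed line marks 50 kb. Klf6 has 18 points beyond the line and Klf4 has 6, whereas Klf10 has only the 1 at its gene end.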

How the data were processed

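ChIP-seq with the J1 antibody was analysed for 1 basal and 1 KCl IP library. The 2 inputs entered only as the control reads of those lists. Per the submitters' processing notes, BWA (version not given in the sources used here) and SICER 1.0 were used, with build mm10 (GRCm38). Per the file names, SICER ran with windows of 200 bp, gaps of 600 bp and an FDR of 0.01. The authors deposited, per island, raw counts of IP and control reads, a p-value with its FDR, and a fold. This fold is the IP/control ratio over 1 constant per library (0.880 basal, 1.59 KCl). Total depth is unknown, and which input served as control is not given in the sources used here.

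Coordinates were converted to 1-based positions and set against the 21887 protein-coding genes that RefSeq lists for GRCm38.p6, which is the build of the islands. Overlap code was checked against bedtools 2.31.1, and intervals were tested on simulated data (Python 3.11.15, scipy 1.17.1). Intervals are 95% exact (Clopper-Pearson) intervals of IP among IP and control reads, divided by the constant. Ratios of folds have exact conditional intervals. Without molecular identifiers, both cover counting error only. Where control reads were 0, a floor of 3 was used.

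All 10 members are named, with the island of largest fold at a gene end and the one of largest fold elsewhere with at least 20 IP reads. The members and lists were chosen with earlier results of these data known. Alternatives covered distance, FDR, fold, gene assignment, list length, the island chosen and the measure. Motif searches used the 250 bases before each RefSeq start. Exons and introns were not told apart, and a planned comparison of the proteins was not run.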

Additional observations from a re-analysis of the deposited data

How the results depend on the processing

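With 1 library per condition, no result has a replicate check. No paired analysis was possible because each condition had 1 IP library and the values come from no test. Of 56 alternative values, 48 stayed within 1.5 times a count or within the counting interval of a value. All 20 for basal neurons were 0. Many of these values could not have moved, so the 48 is no measure of robustness. Stricter filters and smaller windows can only keep a basal count of 0, and the nearest basal island lay 266 kb away. Klf4 and Klf10 had 1 gene-end island each, so adding up reads returned the same fold. The counting intervals are also wide. With IP reads per kb in place of fold, the ratio of Klf4 to the median of the other genes went from 1.87 to 1.06. That of Klf4 to Klf10 went from 2.12 to 1.24. Within gene bodies alone the KCl count was 14 islands in place of 24, since the window is smaller. When the KCl list was shortened to the 711 islands of the basal list, by p or by fold, 0 islands and 0 members remained within 50 kb. The share of all genes for so short a KCl list was not computed. At listed transcription starts 5 of 7 members had an island in place of 9 of 10, and the share over all listed starts was not computed. Klf5, Klf10 and Klf16 had no entry, and the listed Klf12 start had no island within 2 kb. That alternative gave no value for Klf10. IP reads per kb, in another unit than fold, were 36.5 at Klf4 and 29.5 at Klf10.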
